A study of Arabidopsis thaliana with 12 samples.

Results

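The genes described here are those whose transcripts came up as wild-type Arabidopsis flowers opened. They were chosen on the 4 Columbia arrays by a fixed rule: a signal of 500 or more in flowers of stages 13-14, and there a value of (signal + 50) at least 4 times that of stages 1-10, at least 4 times that of stem and at least 2 times that of stages 11-12. Of 22746 probe sets other than controls, 217 met the rule, and 6 were set aside because their gene symbols begin with SWEET, EXP, XTH, CYP or RALFL. That left 211 probe sets, called the opening-flower genes below. One gene was listed for 115 of them, several genes for 4, and 92 had no gene in the probe annotation used here.

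The study profiled 3 genotypes with 1 microarray for each genotype and tissue, 12 arrays in all. The genotypes were Columbia wild type, a genotype that keeps a single wild-type copy across the ARF6 and ARF8 genes and is titled arf6/arf6 ARF8/arf8 (called single-copy here), and the arf6 arf8 double mutant. The series text names the intermediate genotype with the alleles the other way round, so which of the genes supplied the remaining copy is uncertain. The tissues were flower buds of stages 1-10, flowers of stages 11-12, flowers of stages 13-14 and stem from about 0.5 cm below the inflorescence. All plants grew for 6 weeks in long days without treatment.

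ARF6 and ARF8 are auxin response factors, transcription factors that bind the promoters of auxin-regulated genes. They act together in late flower development, and double mutant flowers are known to stop as closed buds with short petals and stamen filaments, anthers that do not open and little jasmonate. In wild-type flowers the anthers open, pollen is shed and germinates on the stigma, pollen tubes grow, nectar is secreted and scent compounds are made around the stages compared here. Whole flowers were used, so fewer cells of a type and less RNA per cell cannot be told apart in any value below.

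Array-wide signals were on one scale, with trimmed means of 500.03 to 500.04 and median signals of 191.9 to 235.3. The single-copy stage 13-14 array stood apart in its quality probes: its spiked bioB signal was 115.7, against 193.1 to 352.9 on the other 11 arrays, and its GAPDH 3'/5' ratio was 0.655, against 0.922 to 1.62. The single-copy stage 1-10 array had the highest bioB signal, 352.9. The Columbia and single-copy stage 11-12 arrays had the highest actin 3'/5' ratios, 7.094 and 7.134, against 4.959 to 6.26 on the others. The arf6 arf8 stage 11-12 array had 5.442. The GAPDH 3'/5' ratio was also highest on the Columbia and single-copy stage 11-12 arrays. The part of these differences in the results was not tested. Test counts are given also without the single-copy arrays of stages 1-10 and 13-14. Levels and ratios of single-copy flowers at stages 13-14 rest on the array that stood apart. Comparisons of arf6 arf8 with the other genotypes at stages 11-12 rest on the arrays with the highest actin ratios. So do the steps from stages 11-12 to 13-14 in Columbia and single-copy flowers.

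In Columbia the opening-flower genes were low in young buds and stem and high in open flowers, as the rule requires. Their median signal went from 68.4 in buds of stages 1-10 through 444 in stages 11-12 to 1539.8 in stages 13-14, and stem had 61.3. Set against other tissues, the median stage 13-14 value of (signal + 50) was 11.3-fold higher than in young buds, 2.93-fold higher than in stages 11-12 and 12.7-fold higher than in stem. These figures describe how the genes were chosen and carry no test. Just inside the signal limit were AT1G35350, a PHO1 family membrane protein, at 523 and AT2G19980, a CAP-domain protein, at 536, and just outside it AT4G33860 at 492. For the fold over stages 11-12, AT5G39880 at 2.02 was inside and AT2G02720 at 1.99 just outside. For the fold over stages 1-10, AT3G56360 at 4.08 was inside and AT1G26930 at 3.81 outside, and for stem AT5G48540 at 4.26 was inside and AT1G55265 at 3.90 outside.

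**Figure D1:**
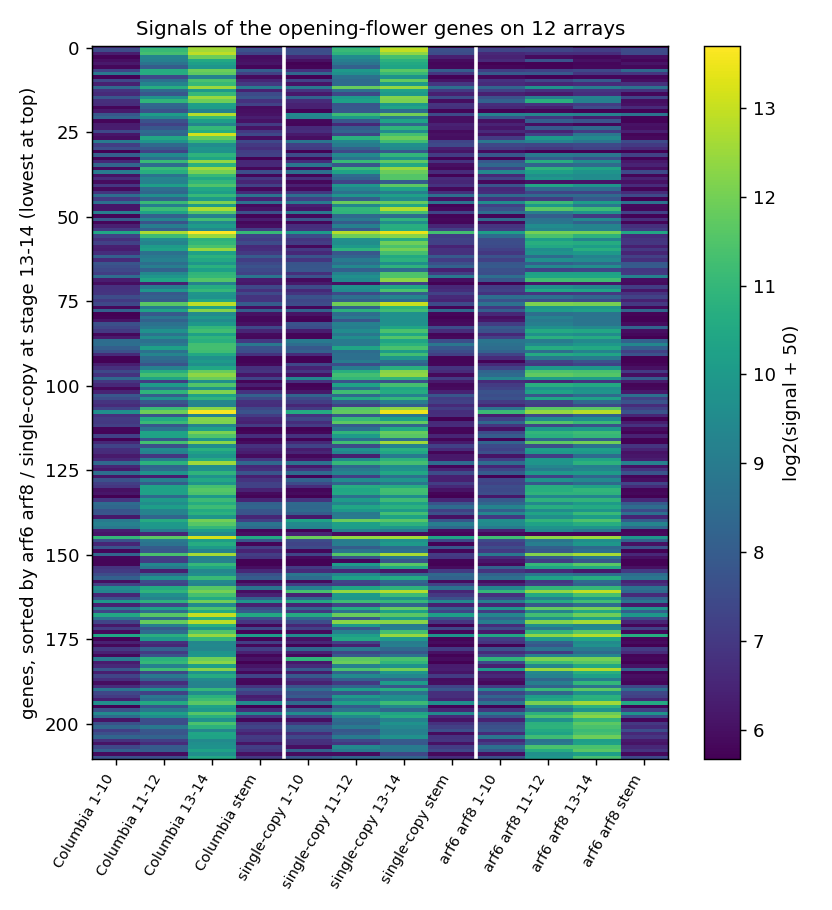
Each row is one of the 211 opening-flower genes and each column one of the 12 arrays, with colour giving log2(signal + 50). Rows are sorted by the ratio of arf6 arf8 to single-copy at stages 13-14, and the genes at the top stay dark in arf6 arf8 flowers while those at the bottom are bright there from stages 11-12.

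The brightest of these genes were of several kinds. COR47, a dehydrin known from cold and drought responses, was the highest: signals at stages 1-10, 11-12 and 13-14 were 1322, 6450.4 and 13229.7 in Columbia, 999, 7039 and 10975 in single-copy and 1102, 4059 and 4116 in arf6 arf8 flowers, with 2083, 2402 and 1379 in the stems of the same genotypes. Its level in arf6 arf8 flowers of stages 13-14 was 31.4% of the Columbia level and lay below both other genotypes. AT3G17060, of the pectin methylesterase family, which changes pectin in the cell wall, showed the same order: signals at stages 1-10, 11-12 and 13-14 were 9.5, 2110.2 and 5963 in Columbia, 10.9, 2173 and 5400.5 in single-copy and 98.0, 1823 and 1254 in arf6 arf8 flowers, with 6.8, 7.5 and 13.8 in the stems of the same genotypes. APPB1, of the pectin methylesterase inhibitor family, had stage 13-14 signals of 5299.9 in Columbia, 3302 in single-copy and 734 in arf6 arf8. PLIM2a, a LIM-domain protein that bundles actin in pollen, had 5133 in Columbia, 5249 in single-copy and 2928 in arf6 arf8. GAMMA-VPE, a vacuolar processing enzyme that matures proteins in the vacuole, was not lowest in the double mutant, with 5499 in Columbia, 5472 in single-copy and 6967 in arf6 arf8. The other named genes among the brightest included AT1G67865, AT3G26110, AT1G78460, AT5G39880, AT5G54095 and AT4G18425, for which no role is given here, and their arf6 arf8 levels ran from 26.3% of Columbia for AT4G18425 to 104% for AT1G78460.

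The increase from stages 1-10 to stages 13-14 was then tested in the 8 mutant arrays, which the rule did not use. Genes were fitted with limma on log2(signal + 50), with genotype and tissue as terms, over 17647 probe sets that reached a signal of 100 on at least 1 array. Because each genotype and tissue has a single array, the error in this fit is what genotype and tissue do not explain, and the p-values measure only that spread. Of the 211 genes, 144 (68.2%) rose from stages 1-10 to stages 13-14 across the mutants, at an adjusted p under 0.05, against 4.83% of all probe sets tested. The fold changes of these genes were 0.91 to 5.83 on the log2 scale, with a median of 3.03, and all 144 were higher at stages 13-14 than at stages 1-10 in each mutant. Over all 211 genes the median log2 change was 2.51, and over all probe sets tested it was 0.05. The other 67 genes did not pass. The count depends on the single-copy stage 1-10 array: without it 75 genes passed, and 65 of the 144 passed in every fit that left out 1 array. Without both single-copy arrays of stages 1-10 and 13-14, in a fit of 10 arrays that includes the Columbia arrays used by the rule, 165 passed.

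Few of these genes went up 2-fold between stages 11-12 and 13-14 in the double mutant, although 136 (64.5%, against 55.6% of all probe sets tested) were above their own stage 11-12 level there and 179 (84.8%, against 57.0%) in single-copy. In single-copy flowers 113 of the 211 genes were at least 2-fold higher at stages 13-14 than at stages 11-12, and 110 of these (52.1% of the 211) also reached a signal of 200, against 10.4% of all probe sets tested. In arf6 arf8 flowers the same counts were 25 and 24 (11.4%), against 0.935% of all probe sets. The median gene was 2.93-fold higher at stages 13-14 than at stages 11-12 in Columbia, 2.12-fold in single-copy and 1.13-fold in arf6 arf8. The median signals show the same: 444 and 1539.8 in Columbia, 478 and 1266 in single-copy, and 666 and 733 in arf6 arf8. Against Columbia, the median level at stages 11-12 was 133% in arf6 arf8 and 114% in single-copy, and at stages 13-14 it was 51.9% and 78.0%. The rule used both Columbia arrays and requires the first to be low and the second high, so the choice itself favours shares above 100% at stages 11-12 and below it at stages 13-14, and these shares are a description. The Columbia and single-copy arrays of stages 11-12 also had the highest actin 3'/5' ratios, and the part of this in these values was not tested.

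**Figure D2:**
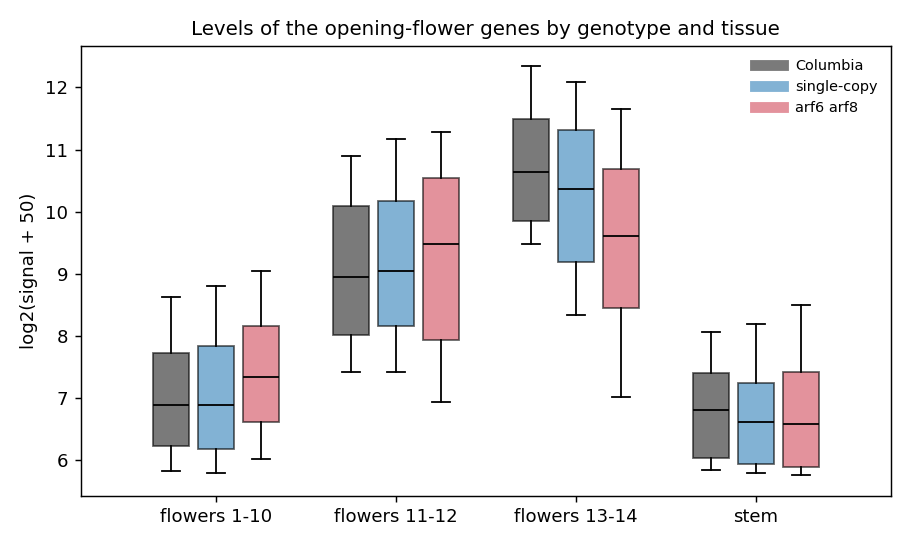
Log2(signal + 50) of the 211 opening-flower genes in each tissue, by genotype; boxes span the quartiles, the line is the median and whiskers reach the 10 and 90 percentiles. The arf6 arf8 boxes stand level between stages 11-12 and 13-14, while the Columbia and single-copy boxes go up.

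When each mutant was judged by its own 4 arrays, 94 of the 211 genes (44.5%) met all of the thresholds in single-copy plants, against 1.22% of all probe sets tested. In arf6 arf8 plants 17 genes (8.06%) met them, against 0.312%. Both mutants shared 7 of these genes, 87 met the thresholds in single-copy only, 10 in arf6 arf8 only and 107 in neither. Among the 17 were AT3G24510, a defensin-like secreted peptide, AT5G09370, of the lipid transfer family, AT1G68620 and AT1G05340. For AT3G24510 the signals at stages 1-10, 11-12 and 13-14 were 8.7, 42.5 and 662 in Columbia, 3.6, 33.7 and 512 in single-copy and 4, 173 and 789.7 in arf6 arf8 flowers, with 8.6, 2.7 and 1.8 in the stems of the same genotypes. The gene thus had its highest signal at stages 13-14 in each genotype, and the double mutant had the highest of these. In arf6 arf8 flowers it had already gone up at stages 11-12, to 173 against 42.5 in Columbia and 33.7 in single-copy.

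How far each mutant reached the Columbia level at stages 13-14 is given as the share of the Columbia (signal + 50). The genes were chosen for being high on that Columbia array, and the choice itself favours shares under 100%, so these values carry no test. In single-copy flowers the median share was 78.0%, with quartiles of 49.4% and 107%, and over all probe sets tested the median was 105%. In arf6 arf8 flowers it was 51.9%, with quartiles of 23.5% and 77.3%, a range of 0.937% to 346% and a median of 105% over all probe sets. At least 2-fold below Columbia, with the brighter signal at 200 or more, were 55 genes in single-copy (26.1%), against 2.98% of all probe sets, and 101 in arf6 arf8 (47.9%), against 5.51%. In arf6 arf8, 23 genes stayed under 10% of Columbia, 31 lay between 10% and 25%, 47 between 25% and 50%, 74 between 50% and 100% and 36 reached 100% or more. In single-copy the same classes held 1, 6, 48, 93 and 63 genes. Single-copy flowers therefore lay between the other genotypes in the median, with few genes near 0.

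**Figure D3:**
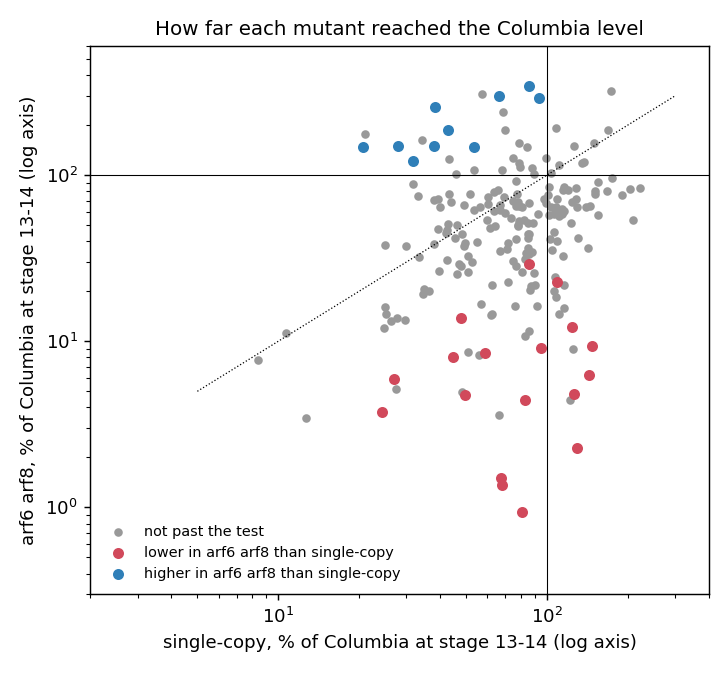
Each point is one opening-flower gene, with its single-copy level on the x axis and its arf6 arf8 level on the y axis, both as a percentage of Columbia (signal + 50) at stages 13-14 on log axes. Red points are the 18 genes lower and blue points the 10 genes higher in arf6 arf8 than in single-copy older flowers by limma, and the dotted line marks equal levels.

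The comparison of arf6 arf8 with single-copy flowers uses no Columbia array. At stages 13-14 the median gene stood at 60.9% of the single-copy level, against 98.0% over all probe sets tested. At least 2-fold lower were 71 genes (33.6%), against 5.04% of all probe sets, and at least 2-fold higher were 20 (9.48%), against 5.07%. These counts rest on the single-copy array that stood apart. At stages 11-12 the median was 106%, close to the 105% of all probe sets, with 26 genes lower (12.3%, against 4.52% of all probe sets) and 42 higher (19.9%, against 7.59%). These stage 11-12 values rest on the single-copy array with the highest actin 3'/5' ratio. At stages 1-10 the median was 113%, against 107% of all probe sets, and 16 genes (7.58%) were at least 2-fold higher in arf6 arf8, against 4.71% of all probe sets. The arf6 arf8 buds of stages 1-10 also exceeded both other genotypes for 117 of the 211 genes (55.5%), compared with 34.9% of all probe sets tested. Unlike the other values here, this count uses a Columbia array. The rule requires the Columbia stage 1-10 value to be low, so the choice itself favours a high count, and it is a description. In stem the median was 98.5%.

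The difference between the mutants over both older stages was tested with limma on the same 8 arrays. Each mutant has 1 array per tissue, so stages 11-12 and 13-14 stand in for repeats. The error is how far the difference varies between these stages, and between buds and stem. The p-values measure only that spread, not variation between plants. Of the 211 genes, 18 (8.53%) were lower in arf6 arf8, against 0.878% of all probe sets tested, and 10 (4.74%) were higher, against 0.533%. The median log2 difference of the 211 genes was -0.18, and that of all probe sets 0.03. Of the 28 genes, 24 lost the call when no filter on low signals was used, which left 3 lower and 1 higher. The 8 fits that left out 1 array are not 8 separate checks. Leaving out a stage 1-10 or stem array keeps the same estimate of this difference. Leaving out an array of older flowers rests the difference on the other older stage alone. The fit of 10 arrays that leaves out the single-copy arrays for stages 1-10 and 13-14 keeps 1 single-copy array of older flowers. It takes the step between the older stages from arf6 arf8 and from the Columbia arrays used by the rule. In that fit the share of these genes called, in both directions together, was not above that of all probe sets. The number called changed when 1 array was left out, both among these genes and among all probe sets, as given in the last section. Whether the difference was larger in older flowers than in buds and stem was tested too. No gene passed in either direction by limma, where 0.034% of all probe sets were lower and 0.0% higher; 65 of the 211 genes (30.8%) had an unadjusted p under 0.05, against 5.92% of all probe sets, and the lowest adjusted p was 0.155. Fits that left out 1 array kept 1 array in a group and had 1 residual degree of freedom. Their counts changed with the stage left out, among all probe sets too, and are not read as results about these genes.

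Most of the genes lower in arf6 arf8 had low signals there. Of the 18, 16 had arf6 arf8 signals under 130 at both older stages, and all 18 were below Columbia at both. The rule favours high Columbia values at stages 13-14 and the test picked low arf6 arf8 values, so this order against Columbia is a description. AT5G19880, a class III peroxidase of the family that oxidises substrates in the cell wall, gave the clearest case: signals at stages 1-10, 11-12 and 13-14 were 3.1, 125 and 548 in Columbia, 2.7, 351 and 828 in single-copy and 6.7, 2.2 and 5.7 in arf6 arf8 flowers, with 10.1, 4 and 6.6 in the stems of the same genotypes. The arf6 arf8 flowers stayed at the level of stem, and the log2 difference from single-copy was -3.46 (SE 0.31, adjusted p = 0.0129). This call held under all 17 alternatives tried, but these are not separate checks, and several repeat the same estimate. The fits of 12 and 10 arrays include the Columbia arrays used by the rule. In the fit of 10 arrays the large Columbia step between the older stages lowers the arf6 arf8 estimate. That favours a lower call, so this fit cannot decide about the gene. AT1G76240 had older-stage signals of 1531 and 3796 in Columbia, 951 and 3155 in single-copy and 100.5 and 121 in arf6 arf8, a log2 difference of -3.48 (SE 0.37, adjusted p = 0.0207). AT3G55870 had 208 and 869 in Columbia, 233 and 1266 in single-copy and 3.9 and 7.6 in arf6 arf8, a difference of -3.45 (SE 0.49, adjusted p = 0.0398). Both genes were thus high in both genotypes with a wild-type copy and at bud level without one.

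AT4G12530, of the lipid transfer family of small secreted lipid-binding proteins, had older-stage signals of 571 and 2087 in Columbia, 309 and 1009 in single-copy and 39.5 and 51.2 in arf6 arf8, a log2 difference of -2.70 (SE 0.38, adjusted p = 0.0398). AT5G37170, of the O-methyltransferase family, which methylates small metabolites, had 292 and 943 in Columbia, 338 and 1184 in single-copy and 65.0 and 71.1 in arf6 arf8, a difference of -2.55 (SE 0.40, adjusted p = 0.0474). In both, arf6 arf8 flowers remained within the range of buds and stem. AT1G70270 differed in order, with older-stage signals of 585 and 2043 in Columbia, 1014 and 461 in single-copy and 69.5 and 28.8 in arf6 arf8, so that single-copy flowers were already low at stages 13-14; its log2 difference was -2.92 (SE 0.35, adjusted p = 0.0267). In buds of stages 1-10 it had 246 in Columbia, 558 in single-copy and 157 in arf6 arf8. The double mutant was thus lowest before the older stages too, and both mutants had less at stages 13-14 than in buds. AT1G02470 was reduced less, with 1224 and 2958 in Columbia, 1860.5 and 2529 in single-copy and 505 and 834 in arf6 arf8, a difference of -1.66 (SE 0.24, adjusted p = 0.0399). The largest differences were at probe sets with no listed gene, named here after their values were seen: 256521_at had older-stage signals of 666 and 6259 in Columbia, 897 and 5056 in single-copy and 41.2 and 9.1 in arf6 arf8, and 265984_at had 2479 and 7626 in Columbia, 1789 and 5165 in single-copy and 54.3 and 55.3 in arf6 arf8. Their log2 differences were -4.90 (SE 0.65, adjusted p = 0.0366) and -4.88 (SE 0.41, adjusted p = 0.0116).

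The 10 genes higher in arf6 arf8 were above both other genotypes at both older stages. All 10 exceeded Columbia in arf6 arf8 at both older stages, while all 10 single-copy levels at stages 13-14 lay below Columbia. For AT1G68620, of a carboxylesterase-type hydrolase family, the signals at stages 1-10, 11-12 and 13-14 were 146, 172 and 1296 in Columbia, 54.1, 206 and 525 in single-copy and 50.1, 1193 and 2460.5 in arf6 arf8 flowers, with 36.0, 9.6 and 46.5 in the stems of the same genotypes. The arf6 arf8 flowers of stages 11-12 had thus already come close to the Columbia level of open flowers, and the log2 difference from single-copy was 2.20 (SE 0.26, adjusted p = 0.0267). AT5G39520 had older-stage signals of 138 and 2664 in Columbia, 278 and 811 in single-copy and 1772 and 3242 in arf6 arf8, a difference of 2.21 (SE 0.25, adjusted p = 0.0234). AT1G05340 had 207 and 1203 in Columbia, 453 and 432 in single-copy and 1562 and 3177 in arf6 arf8, a difference of 2.21 (SE 0.31, adjusted p = 0.0398). AT2G31945 had 426 and 1752 in Columbia, 441 and 633 in single-copy and 1797 and 2641 in arf6 arf8, a difference of 1.95 (SE 0.22, adjusted p = 0.0234). These 4 genes thus shared an order, with single-copy the lowest at stages 13-14. Their calls ended in the fit of 10 arrays without the single-copy arrays of stages 1-10 and 13-14. The log2 differences there were 1.89, 1.73, 1.36 and 1.57 in the same order. That fit takes the step between the older stages from arf6 arf8 and from the Columbia arrays used by the rule. The rule requires this step to be large in Columbia, so the fit cannot decide about these genes. The probe set 245148_at, with no listed gene and named after its values were seen, had 10.8 and 757 in Columbia, 10.9 and 116 in single-copy and 800.4 and 1139 in arf6 arf8, a difference of 3.32 (SE 0.30, adjusted p = 0.0127). Its call ended in the fit of 10 arrays too, with a difference of 2.99.

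**Figure D4:**
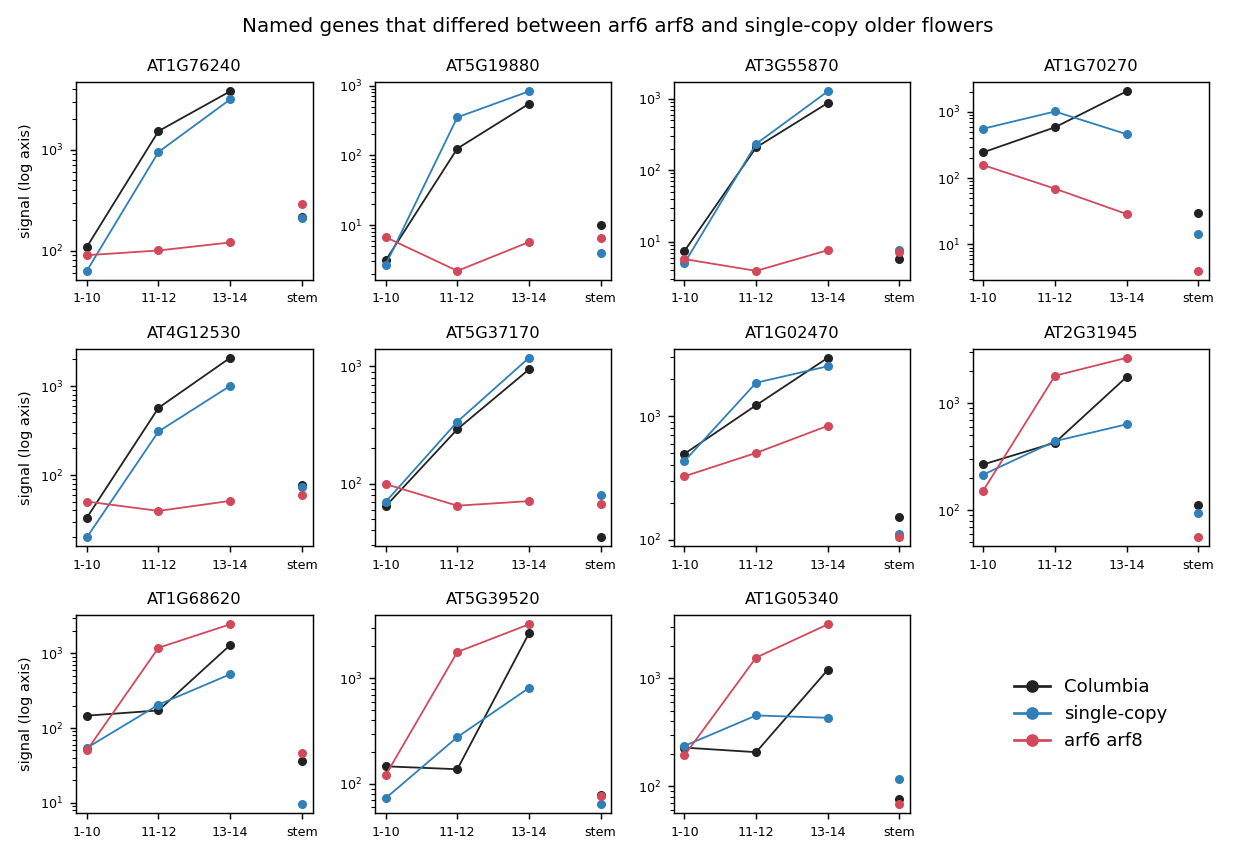
Signals of the 11 named genes that differed between arf6 arf8 and single-copy older flowers, on a log axis, with flower stages joined by lines and stem as a separate point; each point is one array. In the first 7 panels the red arf6 arf8 line lies below the single-copy line at stages 11-12 and 13-14, and in the last 4 it lies above both other genotypes.

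By known role, the largest groups were wall enzymes, signalling proteins and enzymes of small molecules. Roles could be given for 59 of the 115 genes, from general knowledge and after their values were seen, so the groups are described and not tested. In the limma test of the rise in the mutant arrays, 144 of the 211 genes (68.2%) passed. The counts of risen genes by role below are to be read beside that share and are not results about a role. The 10 signalling genes all passed the limma test of the rise in the mutant arrays, which 4.83% of all probe sets passed, but only 4 of the 10 did so without the single-copy stage 1-10 array. Their median levels at stages 13-14 were 115% of Columbia in single-copy and 60.1% in arf6 arf8. ANX2, a receptor kinase that keeps growing pollen tubes intact, is one of them: signals at stages 1-10, 11-12 and 13-14 were 17.5, 243 and 678 in Columbia, 3.5, 169.7 and 778 in single-copy and 22.8, 429 and 379.9 in arf6 arf8 flowers, with 7.5, 7.1 and 2.6 in the stems of the same genotypes. Its arf6 arf8 level stood above Columbia at stages 11-12 and below it at stages 13-14, and its log2 rise was 3.26 (SE 0.45, adjusted p = 0.00889), with an adjusted p of 0.0575 without the single-copy stage 1-10 array. PIPK11, a phosphatidylinositol phosphate kinase of pollen tubes, had older-stage signals of 162 and 678 in Columbia, 209 and 744 in single-copy and 391 and 243 in arf6 arf8. AT3G20530, a protein kinase, had 487 and 1038 in Columbia, 598 and 1368 in single-copy and 928 and 409 in arf6 arf8, and AT4G03290, an EF-hand calcium-binding protein, had 928 and 1955 in Columbia, 1420.4 and 933 in single-copy and 1000.4 and 1276 in arf6 arf8. In ANX2, PIPK11 and AT3G20530 arf6 arf8 flowers were lower at stages 13-14 than at stages 11-12, which AT4G03290 was not. The calmodulin-like CML41 was highest at stages 13-14 in each genotype, with stage 13-14 signals of 597 in Columbia, 499.5 in single-copy and 285 in arf6 arf8.

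The 6 pectin genes all rose in the mutant arrays, 4 of them also without the single-copy stage 1-10 array, with medians of 90.3% of Columbia in single-copy and 55.4% in arf6 arf8. AT59, a pectate lyase that cuts pectin, had older-stage signals of 1003 and 2854 in Columbia, 1211 and 2529 in single-copy and 1662 and 1456 in arf6 arf8, and its log2 rise was 4.53 (SE 0.45, adjusted p = 0.00246). AT2G26450, of the pectin methylesterase family, had 803 and 2365 in Columbia, 700.0 and 2646 in single-copy and 1478 and 1372 in arf6 arf8, and AT2G23900, of the polygalacturonase family, 1008 and 2214 in Columbia, 1029.6 and 2256 in single-copy and 1800.2 and 1876 in arf6 arf8. AT1G23350, of the inhibitor family, was an exception in reaching the Columbia level in arf6 arf8, with 768 and 2519 in Columbia, 1009.8 and 2262 in single-copy and 1440.2 and 2570.5 in arf6 arf8. The 5 other wall genes all rose as well, with medians of 92.1% and 25.4%, but GH9A4, EXLA1, AT5G20390 and GH9B11 did not pass without that array, which left 1. GH9B11 and GH9A4, family 9 glycosyl hydrolases of the endoglucanase type, had stage 13-14 signals of 1288 in Columbia, 782 in single-copy and 142 in arf6 arf8, and of 2802 in Columbia, 3221 in single-copy and 875 in arf6 arf8. EXLA1, an expansin-like protein, had 2287 in Columbia, 1032 in single-copy and 543 in arf6 arf8. AT5G20390, of glycosyl hydrolase family 17, had 2015 in Columbia, 1851 in single-copy and 287 in arf6 arf8. All of these were lowest in the double mutant.

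The 3 genes of the cytoskeleton and endocytosis, PLIM2a and the ENTH-domain proteins AT1G25240 and AT1G68110, all rose, and without the single-copy stage 1-10 array 2 did. Their medians were 123% of Columbia in single-copy and 57.5% in arf6 arf8. For PLIM2a the signals at stages 1-10, 11-12 and 13-14 were 64.9, 2468 and 5133 in Columbia, 16.5, 2406 and 5249 in single-copy and 305, 3372 and 2928 in arf6 arf8 flowers, with 20.9, 9 and 13.9 in the stems of the same genotypes. Double mutant buds of stages 1-10 were thus higher than those of both other genotypes, while its flowers of stages 13-14 were lower. The 5 CAP-domain and defensin-like genes also all rose, 3 of them without that array too, with medians of 79.0% and 33.4%. AT4G25780, a secreted CAP-domain protein, had older-stage signals of 2281 and 5569 in Columbia, 3751 and 4788 in single-copy and 2642 and 1825 in arf6 arf8, and AT1G01310 had 388 and 946 in Columbia, 448 and 807 in single-copy and 552 and 391 in arf6 arf8. The 3 proteases all rose, scpl38 alone of them also without that array, and were the one group of several genes whose arf6 arf8 median passed Columbia, at 111%, with 99.5% in single-copy. Besides GAMMA-VPE they were scpl38, a serine carboxypeptidase-like protein with older-stage signals of 311 and 2815 in Columbia, 528 and 2464 in single-copy and 1947 and 3119.9 in arf6 arf8, and the subtilase AT1G66210 with 345 and 1185 in Columbia, 179.6 and 2469 in single-copy and 829 and 975 in arf6 arf8. In scpl38 and GAMMA-VPE the double mutant at stages 11-12 was already several times above both other genotypes.

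Enzymes of small molecules had the lowest double mutant levels among the groups of 5 or more genes, with a median of 18.4% of Columbia over 9 genes, and of 50.7% in single-copy; 6 of the 9 rose, and 2 did so without the single-copy stage 1-10 array. AT3G25810, a terpene synthase that makes volatile scent compounds, was low in both mutants: signals at stages 1-10, 11-12 and 13-14 were 11.3, 536 and 1949 in Columbia, 7.5, 105 and 204 in single-copy and 8.5, 16.9 and 19.0 in arf6 arf8 flowers, with 40.4, 42.0 and 17.3 in the stems of the same genotypes. Single-copy flowers thus held 12.7% of the Columbia level and arf6 arf8 flowers 3.45%, while the tested difference between the mutants, -1.55 (SE 0.29, adjusted p = 0.0688), did not pass. AT1G35190, a 2-oxoglutarate-dependent oxygenase, was near wild type in single-copy only, with older-stage signals of 844 and 5531 in Columbia, 969 and 4584 in single-copy and 526 and 549 in arf6 arf8. Its tested difference between the mutants, -1.89 (SE 0.491, limma adjusted p = 0.137), did not pass either. AT5G53810, an O-methyltransferase, had 104 and 593 in Columbia, 47.2 and 276 in single-copy and 13.3 and 5.5 in arf6 arf8. AT2G25450, an oxygenase of glucosinolate side chains, went the other way, with 2252 and 4695 in Columbia, 2651 and 3958 in single-copy and 5595 and 6926 in arf6 arf8, and was highest in arf6 arf8 at both stages.

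Among 8 genes of nutrients and hormones, 6 passed the test of the rise, none of which passed without the single-copy stage 1-10 array, and the medians were 81.2% of Columbia in single-copy and 46.1% in arf6 arf8. LPR1, a ferroxidase that takes part in the root's phosphate response, was far lower in the double mutant: signals at stages 1-10, 11-12 and 13-14 were 118, 344 and 2659 in Columbia, 111, 300.3 and 3334 in single-copy and 64.7, 118 and 194 in arf6 arf8 flowers, with 41.2, 19.9 and 13.4 in the stems of the same genotypes. Its difference between the mutants over both older stages, -2.43 on the log2 scale (SE 0.595, limma adjusted p = 0.12), did not pass the test. SAG29, a sugar transporter also named SWEET15 and kept because its listed symbol does not begin with SWEET, had older-stage signals of 306 and 1650.5 in Columbia, 172 and 1422 in single-copy and 256 and 298 in arf6 arf8. In both genes single-copy flowers went up strongly between the older stages and arf6 arf8 flowers were by far the lowest at stages 13-14. GH3.17, which conjugates auxin to amino acids, had 444 and 1722 in Columbia, 258 and 1432 in single-copy and 303 and 555 in arf6 arf8, and APS4, an ATP sulfurylase of sulfate assimilation, 451 and 2432 in Columbia, 435 and 1733 in single-copy and 682 and 920.0 in arf6 arf8. PPDK, pyruvate orthophosphate dikinase, was highest in arf6 arf8, with 1196 and 2682 in Columbia, 1526 and 3407 in single-copy and 3408 and 4071 in arf6 arf8. The metallothionein MT1C had 1511 and 3988 in Columbia, 3703 and 3108 in single-copy and 1880.3 and 2729 in arf6 arf8, and the order of the genotypes differed between these stages.

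UPB1, a bHLH transcription factor that represses peroxidase genes in roots, was low in both mutants at stages 13-14: signals at stages 1-10, 11-12 and 13-14 were 84.0, 1452 and 4637 in Columbia, 114, 2047 and 1122 in single-copy and 99.1, 665 and 705 in arf6 arf8 flowers, with 45.4, 1.8 and 1.4 in the stems of the same genotypes. Single-copy flowers exceeded Columbia at stages 11-12 and then declined. Of the 3 stress and senescence genes, COR47 passed the test of the rise, also without the single-copy stage 1-10 array. The log2 rise of AT1G78780, 2.43 (SE 0.67, adjusted p = 0.066), did not pass. AtS40-3, of a family tied to leaf senescence, had older-stage signals of 162 and 765 in Columbia, 141 and 232 in single-copy and 77.8 and 107 in arf6 arf8, and the pathogenesis-related AT1G78780 had 246 and 1082 in Columbia, 183 and 1259 in single-copy and 32.3 and 129 in arf6 arf8. The class III peroxidase AT2G37130 had 74.6 and 849.9 in Columbia, 31.2 and 444 in single-copy and 91.5 and 306 in arf6 arf8. Single-copy flowers exceeded Columbia for AT1G78780 at stages 13-14 and were short of it for AtS40-3 and AT2G37130.

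Both chitinase family genes rested on a single array. AT2G43590 had 663 on the Columbia stage 13-14 array and 5.1 to 43.1 on the other 11, and AT2G43620 had 602 against 19.5 to 82.5. With the probe set 250500_at they were the 3 genes at least 4-fold higher there than on every other array, which is the array that chose the genes. Chitinases of these families are induced by pathogens and wounding in other tissues.

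Markers of floral tissues were set beside these values, as far as the annotation listed them. Of 30 pollen loci 5 were measured, 1 of them a member (ANX2), and 3 rose in the mutant arrays by limma. Their summed signal at stages 13-14 was 13322 in Columbia, 14959 in single-copy and 10238 in arf6 arf8. The pollen locus AT5G45880 made up most of it, with 10933, 12071 and 9291. MGH3, a sperm cell histone, had 159, 180.0 and 11.1, and ACT11, a reproductive actin, 1373, 1815 and 414, so these were lowest in the double mutant, where neither difference from single-copy older flowers passed the test. ANX1, the partner of ANX2, had 178, 114 and 143.

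All 4 measured tapetum genes of 21 fell over maturation, and their summed signal at stages 13-14 was 121, 92.8 and 91.7. Of 2 measured nectary genes of 8, SWEET9, the nectary sugar exporter that the rule set aside, had stage 13-14 signals of 5520.5, 5201 and 83.9 and was lower in arf6 arf8 older flowers, with a log2 difference of -4.57 from single-copy (adjusted p = 0.0124). JMT, which methylates jasmonate, had 917, 1446 and 132. BPEp, the 1 measured petal and stamen gene of 5, had 1327, 979 and 552. AT3G12000, the 1 measured stigma gene of 5, had 1463, 683 and 40.9. It was low already in arf6 arf8 buds of stages 1-10, at 14.3 against 356 in Columbia and 420 in single-copy. At stages 13-14 these genes, like SWEET9 and JMT, were lowest in the double mutant. Of 3 measured floral volatile genes of 8, AT5G44630 was lower there too, at -3.58 (adjusted p = 0.0234). The part of these tissue markers in the opening-flower values was not tested. No measured jasmonate synthesis gene (2 of 15), flavonoid gene (3 of 10) or senescence gene (1 of 7) was an opening-flower gene or passed the test between the mutants, and no locus of the stem vascular, photosynthesis and jasmonate response lists was measured.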

How the data were processed

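Expression was measured on 12 microarrays, 1 for each of 3 genotypes and 4 tissues. Per the labels' protocols, RNA was extracted with TRIzol and labelled as biotin cRNA. The deposited values are signal intensity per probe set, made by the authors with MAS5 per the submitters' processing notes; the version and genome build are not given in the sources used here. Trimmed means were nearly equal, so signals were not rescaled. The labels name no replicates, so the number of arrays limits the precision.

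Tests used limma 3.58.1 in R 4.3.3 (two-sided, moderated with a mean trend) on log2(signal + 50), with the 8 mutant arrays, Benjamini-Hochberg adjustment over 17647 probe sets that reached 100 on at least 1 array, and a threshold of 0.05. Fold changes are on the log2(signal + 50) scale, which understates those of low genes. The fit of both older stages against buds and stem had 2 residual degrees of freedom, and the fit of genotype and tissue had 3. The steps were tested on simulated data. Ratios between single arrays are of (signal + 50), called at 2-fold where at least one array of the pair had 200 or more, without a test. Tables and figures used Python 3.11.15, pandas 2.3.3 and matplotlib 3.10.9.

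The genes and marker lists were chosen with earlier results of these data known. Named genes with 1 listed gene were the 15 brightest in Columbia open flowers, the 12 with the lowest and the 12 with the highest arf6 arf8 to single-copy ratio, up to 5 of each class or list, and the 3 nearest each threshold on either side. The description went beyond that rule for every gene past the test between the mutants and for the classes of known role, which were chosen after their values were seen. Planned lists of families by product name matched 2 glycosyl hydrolases, 1 kinase and 1 protease, since the annotation holds few product names.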

Additional observations from a re-analysis of the deposited data

How the results depend on the processing

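No paired analysis was possible because the labels number no replicates and each genotype and tissue has 1 array. No count and no named gene past the test changed direction under any alternative. Among named genes that did not pass, 75 values of 29 genes changed sign for arf6 arf8 against single-copy, as did 7 values of 4 genes for stages 13-14 against 1-10; no such value passed (lowest limma adjusted p 0.0852 and 0.208), and no fitted direction is reported for them. For arf6 arf8 against single-copy older flowers, 249 probe sets were called; without the filter there were 53, with all 12 arrays 716, in the 10 arrays without single-copy stages 1-10 and 13-14 there were 2182, with the flower arrays only 598, and leaving out 1 array gave 483 to 843. Among the opening-flower genes, the 18 lower became 3 without the filter, 11 with a filter of 200 in 3 arrays, 35 with the flower arrays only and 20 to 52 with 1 array left out. The 10 higher became 5 with a pseudocount of 16, 1 without the filter, 5 in the 10 arrays, 16 with the flower arrays only and 13 to 17 with 1 array left out. For older flowers minus younger tissue, 6 probe sets were called; the count was 0 with a pseudocount of 16, without the filter, with the stricter filter and without the trend, 10 with a pseudocount of 200, 42 in 12 arrays, 3 in 10 arrays and 40 to 332 with 1 array left out. The opening-flower genes, 0 in both directions, became 5 lower and 1 higher in 12 arrays, 1 higher with a pseudocount of 200, and 7 to 36 lower and 1 to 8 higher with 1 array left out. For stages 13-14 against 1-10, 1661 probe sets were called, 3300 in 12 arrays, 806 in the flower arrays only and 372 to 3639 with 1 array left out; the 144 risen genes became 75 to 178. The fits of 12 and 10 arrays include Columbia arrays that the rule used. At a 4-fold limit for stages 13-14, 7 genes lay below Columbia in single-copy and 54 in arf6 arf8, and 37 lay below and 9 above single-copy in arf6 arf8. With an offset of 200, 9 genes met the thresholds in arf6 arf8. An alternative chosen after seeing the data, the comparison of the mutants at stages 11-12 instead, gave 26 lower and 42 higher. For the gene values reported, 191 of the test between the mutants kept their side of the threshold, 7 newly passed and 23 no longer passed; for stages 13-14 against 1-10, 795 kept it and 89 no longer passed. The cause was not tested.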
